A study of Mus musculus with 6 samples.

Results

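Veins carry endothelial cells (ECs) with an identity of their own, and in the liver the ECs around the central vein form a specialised zone. The 8 genes described here are taken as markers of these cells. They include the receptors Ephb4, Kit and Aplnr and the transcription factors Nr2f2 and Nr2f1. The others are the adhesion protein gene Cdh13, the gap junction gene Gja1 and the enzyme gene Tgm2. All 8 were listed by name as known venous or pericentral endothelial genes. Venous ECs were not sorted apart, so how specific the genes are to them was not tested. No measured value enters the rule, although earlier results of these data were known when the list was made. They are 8 of the 24421 gene symbols in the count table. All 8 were measured and passed the filter on low counts (at least 0.5 CPM, counts scaled to a common library total, in at least 1 sample).

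Arteries display the membrane ligand ephrin-B2 and veins its receptor EphB4, and the contact of ligand and receptor helps keep the vessel types apart. Nr2f2 (COUP-TFII) holds venous ECs in their identity and is known to restrain the Notch signals that favour arterial identity. In the liver lobule, blood enters at the portal vein and hepatic artery, flows through the sinusoids and leaves by the central vein, whose ECs secrete Wnt2, Wnt9b and R-spondin 3 and so help set the gene programme of the hepatocytes beside them. Kit and Cdh13 are used as markers of this pericentral end.

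The study asked how ageing alters liver ECs. RNA was sequenced from ECs sorted by flow cytometry as CD31+CD45- cells, a gate for cells with an endothelial surface protein and without the pan-leukocyte protein. The labels give all 6 mice as wild-type (WT) C57BL/6J, with no treatment named, and the study used female mice. The 3 young mice were 10 weeks old. The 3 aged mice were 127, 131 and 136 weeks old by label, and each aged sample is named here by its weeks. The gate takes every EC of the liver together, so arterial, sinusoidal, central venous and lymphatic ECs are mixed, and in such bulk RNA fewer cells of a type and less RNA per cell cannot be told apart.

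The libraries held 23001556 to 31651817 counts each, so that a gene at 3 counts stood at 0.0948 to 0.130 CPM. Endothelial genes were high in every sample, with a summed level of 13472 to 15351 CPM in young and 10136 to 12646 CPM in aged samples for the 9 pan-endothelial markers tested, of which Kdr, Eng and Esam were lower in every aged sample (median log2 fold change -0.18). Of all genes tested, 5.51% had every aged value below every young one. The libraries differed in ways that cut across age. Lars2 and Rn45s together took 4.68 to 5.53% of the counts in 4 samples and 1.29% and 0.960% in young sample 3 and the 127-week sample, and differences are given below also within these 2 kinds of library, where the comparison is 2 samples against 2 and 1 against 1. The 136-week sample stood apart in other cells' genes, with Ptprc (CD45) at 25.2 CPM against 8.41 and 1.25 CPM in the 127- and 131-week samples and 1.13 to 1.71 CPM in the young. This sample was the lowest of the 6 in 25.9% and the highest in 22.9% of the 14612 genes tested.

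None of the 8 genes passed the threshold of edgeR's quasi-likelihood test (adjusted p below 0.05 with a log2 fold change beyond 1), and neither did any other gene: 0 of 14612 genes were called, or 0%, while 12.6% had an unadjusted p below 0.05, as did 1 of the 8 genes (Kit). DESeq2 called 3.39% of the 13979 genes to which it gave an adjusted p, and Kit was the 1 gene among the 8. Genes are counted here as higher or lower by the sign of the fitted log2 fold change (aged over young), and 3 of the 8 were higher and 5 lower. The median of the set was -0.037, beside 0.0098 over all genes tested. The 3 aged values lay wholly above the 3 young ones for Tgm2 and wholly below for Kit. Over all genes tested 17.3% separated the ages in this way, 11.8% with the aged samples higher and 5.51% with them lower, and 2 of 8 is near that share. The 136-week sample was the lowest of the 6 for Ephb4, Cdh13 and Kit, and the highest for Gja1, Aplnr and Tgm2.

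**Figure D1:**
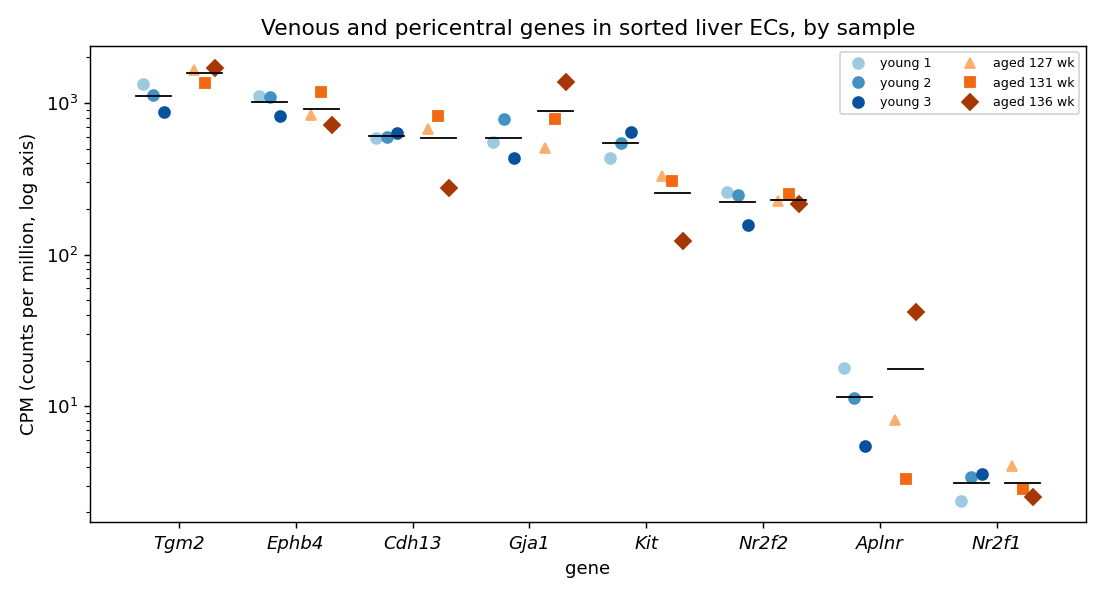
Level of each of the 8 genes in each sample, in CPM on a log axis, with young samples on the left and aged samples on the right of each gene and a bar at each group mean. The ages separate for Kit, where the aged points lie below the young, and narrowly for Tgm2, where they lie above, and the 136-week sample (dark diamond) is the outermost aged point for Kit, Cdh13, Gja1 and Aplnr.

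Levels between genes were compared per length, on the FPKM values that the authors deposited. In young ECs Tgm2 was the highest of the set at 329.6 ± 69.6 FPKM (SD, n = 3), rank 259 of the 24346 genes in that table. Cdh13 followed at 286 ± 9.49, Ephb4 at 242 ± 40.6 and Gja1 at 202 ± 63.6 FPKM. Tgm2 overlapped all 3 and Ephb4 overlapped Gja1, so those orders did not exceed the spread between samples, while every young Cdh13 value lay above every young Ephb4 and Gja1 value. Kit stood below them at 108 ± 20.4 FPKM and Nr2f2 below Kit at 54.5 ± 14.3 FPKM, each with young values clear of the gene above it. Aplnr (3.40 ± 1.82 FPKM) and Nr2f1 (1.45 ± 0.266 FPKM) were low, and their ranges touched. In aged ECs Kit, at 47.8 ± 20.6 FPKM, overlapped Nr2f2, at 54.2 ± 6.29 FPKM, and its rank went from 864 in the young to 1922 in the aged mean. Gja1 stood second among the 8 in the aged mean, at 295 ± 158 FPKM, with the 136-week value of 465 FPKM above the others. The spread between samples was itself uneven: the coefficient of variation of CPM in young ECs ran from 3.79% for Cdh13 to 53.5% for Aplnr, and in aged ECs from 7.65% for Nr2f2 to 118% for Aplnr.

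Ephb4 (mm9, chr5:137791337-137819897, plus strand) encodes the receptor tyrosine kinase that marks veins. It was at 1115, 1091 and 823 CPM in young samples 1, 2 and 3, and at 834, 1185 and 722 CPM in the 127-, 131- and 136-week samples. The highest and the lowest value of all 6 were both aged, and the groups overlapped. The log2 fold change was -0.20 (SE 0.26; 95% interval -0.80 to 0.40; edgeR adjusted p = 0.815), and within samples with many and few Lars2 and Rn45s counts the difference was -0.25 and 0.02, the latter turning on TMM-scaled CPM (750.04 in the 127-week sample against 821 in young sample 3). A change of 1 log2 unit in either direction lies outside this interval. Its ligand gene Efnb2, which marks arteries, was at 147, 174 and 171 CPM in the young and 130.3, 178 and 248 CPM in the aged samples, again with overlap. The ratio of Ephb4 to Efnb2 counts, which is free of library scaling, was 7.59, 6.28 and 4.82 in young samples and 6.40, 6.67 and 2.91 in the 127-, 131- and 136-week samples. On the log2 scale the mean ratio was 2.61 ± 0.33 for the young and 2.32 ± 0.67 for the aged samples (SD, n = 3 per age), a difference of -0.29 (two-sided exact permutation p = 0.7, where 0.1 is the smallest p that 3 against 3 allows). Without the 136-week sample the difference was 0.094, and it was -0.65 and 0.41 within samples with many and few Lars2 and Rn45s counts, so its direction was set by single samples.

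The window of 300 bases around the Ephb4 start site (250 before and 50 after, RefSeq, GRCm38.p6, chr5:137349859-137350158, plus strand) is shown because Ephb4 is the venous receptor against which the arterial ligand is read. Capitals mark matches to the motifs searched.
Ephb4: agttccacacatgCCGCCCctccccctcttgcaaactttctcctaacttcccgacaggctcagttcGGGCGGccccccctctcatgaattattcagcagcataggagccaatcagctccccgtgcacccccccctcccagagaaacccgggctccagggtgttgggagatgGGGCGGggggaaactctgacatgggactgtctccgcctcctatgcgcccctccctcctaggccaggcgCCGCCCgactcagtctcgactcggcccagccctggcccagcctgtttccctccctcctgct
The letters searched on both strands were those of 7 motifs, and no matches of different motifs overlapped in the windows shown: GGGCGG as the GC box, present in 35.9% of 27025 mouse promoters of this length, GATAA for GATA factors (25.8% of promoters), CAGCTG as an E-box (16.1%), AGGTCA for COUP-TF factors such as Nr2f2 (16%), CCGGAA for ETS factors (15.2%), TATAAA as the TATA box (14.2%) and TGANTCA for AP-1 (7.93%). The Ephb4 window held 4 GC boxes, with leftmost bases at -237, -184, -79 and -11 from the start site, and none of the other motifs. A match of letters is a description of the window and not evidence of a bound factor. The promoter table held 5 of the 8 genes: Ephb4, Nr2f2, Nr2f1, Kit and Gja1.

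Nr2f2 (mm9, chr7:77496832-77511621, minus strand), the main venous transcription factor, had similar levels at both ages. Young samples stood at 259, 249 and 156 CPM and the 127-, 131- and 136-week samples at 226, 250.3 and 216 CPM. Young sample 3 was the low one, and the aged values lay between it and young sample 1. The log2 fold change was -0.0038 (SE 0.23; 95% interval -0.54 to 0.53; edgeR adjusted p = 0.997), and -0.13 and 0.53 within samples with many and few Lars2 and Rn45s counts. Its paralog Nr2f1 (COUP-TFI; mm9, chr13:78328234-78339018, minus strand) was low, at 2.39, 3.39 and 3.57 CPM in the young and 4.01, 2.85 and 2.51 CPM in the aged samples, or 63 to 113 counts. Groups again overlapped, and the log2 fold change of Nr2f1 was -0.07 (SE 0.33; 95% interval -0.85 to 0.71; edgeR adjusted p = 0.961), with -0.069 and 0.13 in the 2 kinds of library. No stretch of 75 bases, the read length, was shared between the annotated transcripts of the paralogs. The count ratio of Nr2f2 to Nr2f1 was 108, 73.6 and 43.8 in young and 56.2, 87.9 and 86.0 in aged samples, with a mean log2 ratio of 6.14 ± 0.66 and 6.23 ± 0.36 (SD, n = 3 per age), a difference of 0.095 (two-sided exact permutation p = 0.8). Per length, on FPKM, Nr2f2 stood 23.4 to 55.6 times as high as Nr2f1 in young and 29.2 to 47.3 times as high in aged samples, so Nr2f2 was the dominant paralog in all 6. Of the other Nr2 nuclear receptor genes, Nr2f6, Nr2c1 and Nr2c2 were tested, none separated the ages, and their median log2 fold change was -0.17. Nr2f6, the highest of them, was at 72.8, 73.2 and 55.6 CPM in the young and 78.2, 67.3 and 50.6 CPM in the aged samples.

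Aplnr (mm9, chr2:84976517-84980079, plus strand, 1 exon) encodes the G protein-coupled receptor for apelin and is found on venous ECs. It was at 17.8, 11.3 and 5.47 CPM in young samples 1, 2 and 3, and at 8.11, 3.30 and 41.6 CPM in the 127-, 131- and 136-week samples. The 136-week sample was the highest and the 131-week sample the lowest of all 6, a range of 12.6-fold in CPM. The log2 fold change of Aplnr was 0.58 with an SE of 0.89 (95% interval -1.49 to 2.66; edgeR adjusted p = 0.854), and the interval reaches well below and well above 0. Without the 136-week sample it was -1.14, and -0.16 and 0.49 within samples with many and few Lars2 and Rn45s counts. Its ligand gene Apln, which sprouting ECs express, was at 8.75, 7.78 and 5.31 CPM in the young and 42.4, 6.00 and 39.3 CPM in the aged samples. Here 2 of 3 aged samples stood above every young sample and the 131-week sample did not (log2 fold change 1.91, SE 0.64, edgeR adjusted p = 0.32). DESeq2 called Apln, with an adjusted p of 0.0351. Receptor and ligand were thus both high in the 136-week sample, while in the 127-week sample the ligand was high and the receptor within the young range. The other ligand gene of the receptor, Apela, had no count in any sample, which at this depth allows a level of up to 0.0948 to 0.130 CPM.

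Kit (mm9, chr5:75970941-76052747, plus strand) encodes the receptor tyrosine kinase for stem cell factor and is a marker of pericentral liver ECs as well as of mast cells and blood progenitors. Young samples 1, 2 and 3 had 437, 547 and 647 CPM, and the 127-, 131- and 136-week samples 332, 308 and 122 CPM. Every aged value lay below every young one, with a gap between 332 and 437 CPM, and the 136-week sample was the lowest. Mean Kit was 544 ± 105 CPM for the young and 254 ± 115 CPM for the aged samples (SD, n = 3 per age). The log2 fold change of Kit was -1.17 (SE 0.35; 95% interval -1.996 to -0.35), or 0.444-fold, and the edgeR adjusted p of 0.282 did not pass the threshold. DESeq2 gave a log2 fold change of -1.18 with an adjusted p of 0.0262, which did. Without the 136-week sample the edgeR value was -0.85 (adjusted p = 0.374), and within samples with many and few Lars2 and Rn45s counts the difference was -1.33 and -0.96, so the direction held in both kinds of library.

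The start-site window of Kit (RefSeq, GRCm38.p6, chr5:75574737-75575036, plus strand) is shown because Kit is the member with the largest separation between ages among the 8. Capitals mark the 1 GC box found, at -98.
Kit: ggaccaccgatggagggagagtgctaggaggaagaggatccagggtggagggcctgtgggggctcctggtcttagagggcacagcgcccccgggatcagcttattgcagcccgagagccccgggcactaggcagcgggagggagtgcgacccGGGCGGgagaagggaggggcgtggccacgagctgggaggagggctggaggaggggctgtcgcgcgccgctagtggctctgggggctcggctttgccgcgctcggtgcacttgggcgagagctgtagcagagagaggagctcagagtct
This window has 69% G and C bases and 20 CpG dinucleotides, beside a median of 52.67% G and C over all promoters and 64.67% with 14 CpG dinucleotides for Ephb4.

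Kitl, which encodes the ligand of Kit (stem cell factor), was at 104, 102 and 92.8 CPM in the young and 105, 152 and 137 CPM in the aged samples. Its aged CPM values lay above the young, by less than 1 CPM at the closest pair, and its log2 fold change was 0.35 (SE 0.20, edgeR adjusted p = 0.541). On TMM-scaled CPM the ages overlapped, as the TMM factor was 1.11 in the 127-week sample and 0.963 to 1.00 in the young. Mast cell genes were at or near 0 in all samples, where Kit had 122 CPM or more: Tpsab1 had no count, Mcpt4, Tpsb2 and Cma1 had at most 0.108 CPM, and the 8 mast cell and progenitor genes summed to 0.565 to 1.07 CPM in young and 0.0759 to 4.43 CPM in aged samples (3 tested, median log2 fold change 1.63, none separating the ages, and a median of -0.35 without the 136-week sample). Most sinusoidal EC genes were lower in the same samples as Kit. Of 10 sinusoidal markers 8 had all aged values below all young ones, beside 5.51% of all genes tested, and their median log2 fold change was -1.09. The 8 were Oit3, Stab1, Stab2, Mrc1, Clec4g, F8, Cd209b and Fcgr2b. Lyve1 and Gata4 overlapped between ages. In log2(CPM + 1), Lyve1 stood 0.53, -1.22 and 1.54 from the young mean in the 127-, 131- and 136-week samples. Gata4 stood at 0.062, 0.31 and -0.73 in these samples. Clec4g, a lectin gene with the highest mean CPM of them, was at 3566, 3748 and 4259 CPM in the young and 1508, 2310.5 and 554 CPM in the aged samples, and Stab1, a scavenger receptor gene, at 2614, 2791 and 2661 CPM in the young and 1663, 1934 and 1475 CPM in the aged samples. None of the 10 was called by edgeR, which called 0 of all 14612 genes tested. The sum of the 10 genes was 16513 to 18316 CPM in young and 6528 to 11614 CPM in aged samples. Their part in the level of Kit was not tested.

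Cdh13 (mm9, chr8:120807633-121848821, plus strand, a locus of 1041 kb) encodes T-cadherin, a lipid-anchored cadherin that binds adiponectin. It was the steadiest of the 8 in young ECs at 589, 596 and 632 CPM, while the 127-, 131- and 136-week samples had 672, 825 and 278 CPM. In CPM the first 2 of these lay above every young sample and the 136-week sample lay below all. On TMM-scaled CPM the 127-week sample, at 604, lay just below the young samples, at 606, 619 and 631, and on FPKM, at 282, it lay within their range of 278 to 297, so its place depended on the scaling. The log2 fold change was -0.10 (SE 0.36; 95% interval -0.94 to 0.74; edgeR adjusted p = 0.948). It was 0.23 without the 136-week sample, and -0.31 and 0.089 within samples with many and few Lars2 and Rn45s counts, the latter turning on TMM-scaled CPM (604 in the 127-week sample against 631 in young sample 3). The ligand gene Adipoq, a fat cell gene, had counts in 1 young sample only, at 0.304 CPM, and was not tested. Kit and Cdh13 are used as markers of the same zone and yet differed in the 127- and 131-week samples. The count ratio of Kit to Cdh13 was 0.742, 0.917 and 1.02 in young and 0.493, 0.373 and 0.440 in aged samples, with all aged ratios below all young ones. On the log2 scale this was -0.17 ± 0.24 for the young and -1.21 ± 0.20 for the aged samples (SD, n = 3 per age). This ratio was chosen after the values of both genes were seen and is given without a test.

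**Figure D2:**
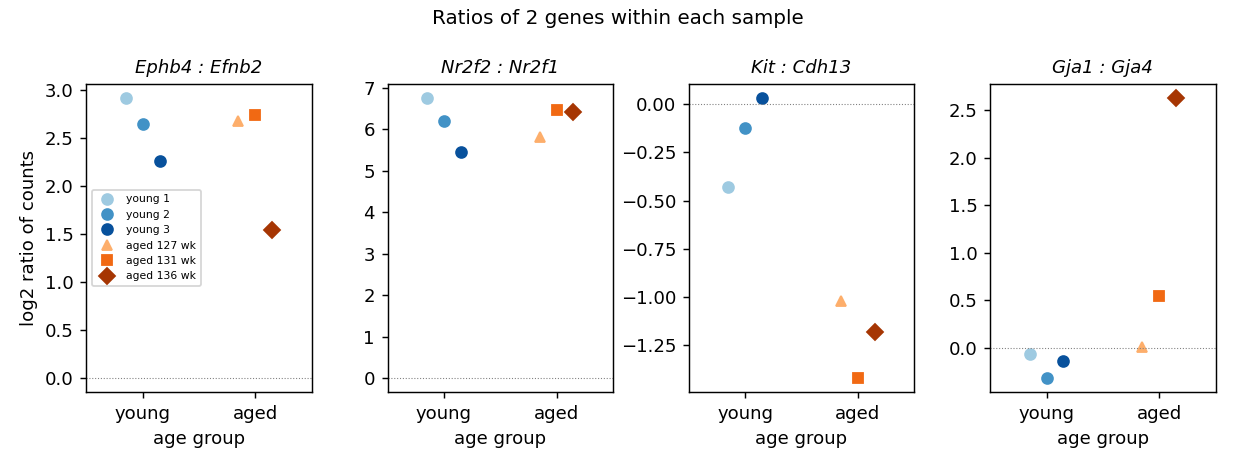
Log2 ratio of the counts of 2 genes within each sample, for Ephb4 to Efnb2, Nr2f2 to Nr2f1, Kit to Cdh13 and Gja1 to Gja4, with young samples on the left and aged samples on the right of each panel. The ages overlap for Ephb4 to Efnb2 and Nr2f2 to Nr2f1; aged ratios of Kit to Cdh13 lie between -1.42 and -1.02 and young ones between -0.43 and 0.034. The last 2 ratios were picked after their genes had been seen.

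Gja1 (mm9, chr10:56097106-56110225, plus strand) encodes connexin 43, which forms gap junctions between neighbouring cells. Young samples had 551, 787 and 432 CPM and the 127-, 131- and 136-week samples 507, 785 and 1378 CPM. The first 2 aged values lay within the young range and the 136-week value above it. The log2 fold change was 0.55 (SE 0.42; 95% interval -0.43 to 1.54; edgeR adjusted p = 0.649), was 0.061 without the 136-week sample, and was 0.66 and 0.23 within samples with many and few Lars2 and Rn45s counts. Gja4 (connexin 37), an arterial connexin gene, was at 578, 981 and 475 CPM in the young and 502, 537 and 222 CPM in the aged samples, with the 136-week sample the lowest. In that sample the count ratio of Gja1 to Gja4 was 6.21, against 0.802 to 0.954 in young samples and 1.01 and 1.46 in the 127- and 131-week samples. This ratio too was chosen after its genes were seen. Gja5 (connexin 40), the other arterial connexin gene, was at 119, 112 and 49.4 CPM in the young and 103, 123 and 76.2 CPM in the aged samples. Of the 6 connexin genes tested beside Gja1, Gja4 and Gja5 among them, 5 were higher and 1 was lower. Their median log2 fold change was 0.34, and only Gjc1 (connexin 45) separated the ages, at 10.0, 9.43 and 9.98 CPM in the young and 16.2, 12.1 and 15.5 CPM in the aged samples.

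The start-site window of Gja1 (RefSeq, GRCm38.p6, chr10:56377050-56377349, plus strand) is shown because it contrasts with the windows of the 2 receptors above.
Gja1: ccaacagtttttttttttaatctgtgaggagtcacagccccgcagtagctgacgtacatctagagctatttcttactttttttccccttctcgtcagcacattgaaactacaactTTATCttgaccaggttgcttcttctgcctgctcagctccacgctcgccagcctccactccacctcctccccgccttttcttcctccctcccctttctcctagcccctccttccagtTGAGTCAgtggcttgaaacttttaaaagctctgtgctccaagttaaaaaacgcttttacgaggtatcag
It has 47.67% G and C bases and 8 CpG dinucleotides, no GC box, and in capitals a GATA match on the opposite strand at -135 and an AP-1 match at -19. The window of Nr2f2 held none of the 7 motifs and that of Nr2f1 1 GC box. Only 1 start site was read per gene, so these counts do not cover any other start sites.

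Tgm2 (mm9, chr2:157942138-157972172, minus strand) encodes tissue transglutaminase, an enzyme that cross-links proteins and is abundant in ECs. Young samples 1, 2 and 3 were at 1337, 1123 and 876 CPM, and the 127-, 131- and 136-week samples at 1647, 1354 and 1716 CPM. All aged values lay above all young ones, with 1354 CPM in the lowest aged and 1337 CPM in the highest young sample. Mean Tgm2 was 1112 ± 231 CPM for the young and 1572 ± 192 CPM for the aged samples (SD, n = 3 per age), and the log2 fold change was 0.43 (SE 0.22; 95% interval -0.079 to 0.95; edgeR adjusted p = 0.471). The difference had the same direction within samples with many and few Lars2 and Rn45s counts (0.31 and 0.91). In the annotation 21.8% of the exonic bases of Tgm2 are also exonic in Rprd1b or a processed transcript on the opposite strand. Rprd1b stood at 48.9 to 59.6 CPM, 3.95% of the Tgm2 mean, with a log2 fold change of -0.059. Of the other transglutaminase genes and the factor XIII genes 4 were tested (Tgm1, Tgm4, F13a1 and F13b, the last encoding a carrier subunit without enzyme activity), 2 of them higher and 2 lower, and their median log2 fold change was 0.73. Tgm4 had at most 3.84 FPKM and F13a1 at most 1.33 FPKM, where Tgm2 had 257 FPKM or more. Tgm4 was at 10.3, 11.8 and 9.51 CPM in the young and 7.95, 9.30 and 8.73 CPM in the aged samples, all aged values below all young ones, and F13a1 (the clotting factor XIII A chain) at 0.868, 0.696 and 0.663 CPM in the young and 1.95, 1.10 and 4.98 CPM in the aged samples, all above.

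**Figure D3:**
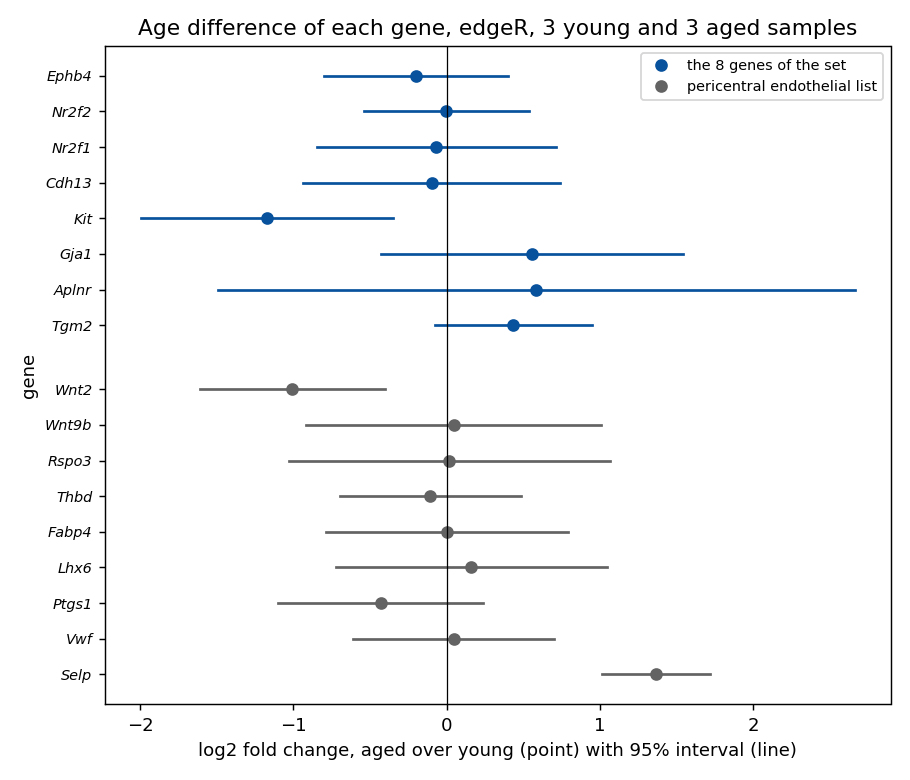
Log2 fold change of aged over young ECs (point) with its 95% interval (line) from edgeR for the 8 genes, in blue, and for 9 further pericentral endothelial genes, in grey. The intervals of Kit, Wnt2 and Selp do not reach 0, those of the other genes do, and no gene passed the adjusted threshold.

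The other genes of the pericentral zone were read beside Kit and Cdh13. Of 9 tested, 5 were higher and 4 lower, the median log2 fold change was 0.017, and none was called by edgeR. Wnt2, the Wnt ligand of pericentral and sinusoidal ECs, was at 796, 696 and 757 CPM in the young and 452, 478 and 242 CPM in the aged samples, with all aged values below all young ones, as for Kit (log2 fold change -1.01, SE 0.26, edgeR adjusted p = 0.245; DESeq2 adjusted p = 0.00932). Without the 136-week sample its log2 fold change was -0.77. Wnt9b, the more strictly pericentral Wnt gene, overlapped between ages, at 225, 268 and 241 CPM in the young and 441, 263 and 106 CPM in the aged samples. Rspo3, which encodes R-spondin 3, an enhancer of Wnt signals, was at 773, 708 and 614 CPM in the young and 1174, 824 and 262 CPM in the aged samples. Both had the 127-week sample as the highest of the 6 and the 136-week sample as the lowest, and without the latter both log2 fold changes were 0.41. The 136-week sample was in fact the lowest of all 6 for 5 of the 9 genes, where it was the lowest for 25.9% of all genes. Lhx6, a transcription factor gene, at 212, 171 and 132 CPM in the young and 329, 188 and 99.3 CPM in the aged samples, and Ptgs1 (cyclooxygenase 1), at 947, 931 and 831 CPM in the young and 826, 878 and 405 CPM in the aged samples, showed the same low value in it. Vwf, the von Willebrand factor gene, was at 2459, 2679 and 1728 CPM in the young and 2623, 3036 and 1762 CPM in the aged samples, and Fabp4, a fatty acid carrier gene of venous and capillary ECs, at 1174, 1178 and 610.4 CPM in the young and 758, 1239 and 1067 CPM in the aged samples, both with overlapping groups. Selp, which encodes the leukocyte adhesion receptor P-selectin, was the exception in size: at 277, 304 and 336 CPM in the young and 930.1, 785 and 757 CPM in the aged samples, every aged value was above 2 times every young one (log2 fold change 1.37, SE 0.15, edgeR adjusted p = 0.0861). DESeq2 called Selp, with a log2 fold change of 1.36 and an adjusted p of 4.02e-19.

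**Figure D4:**
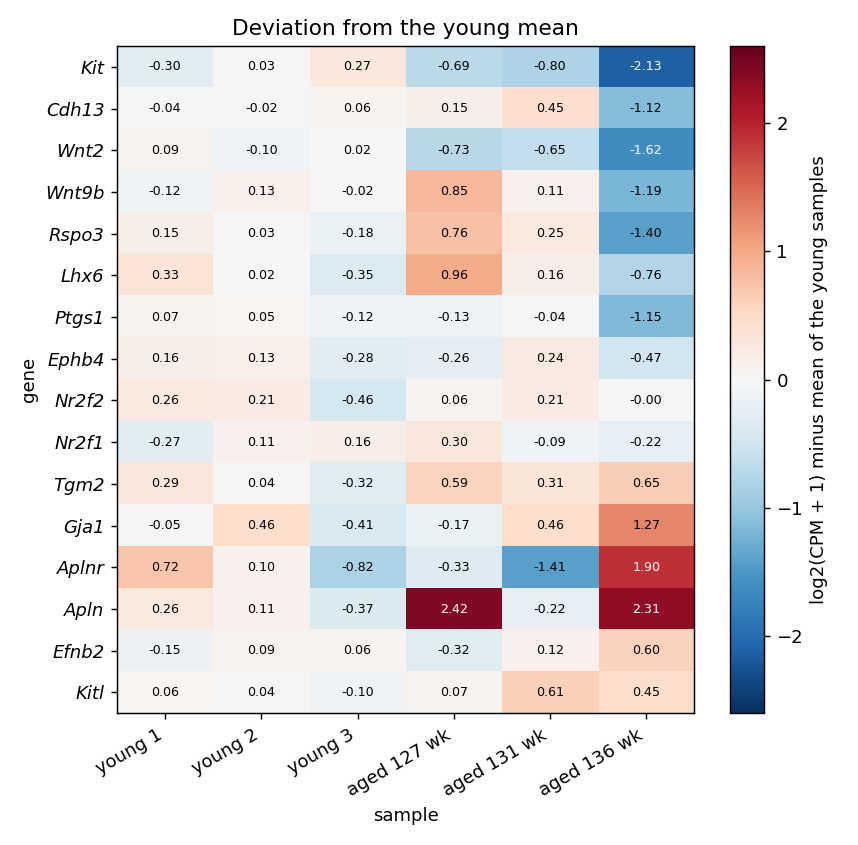
Deviation of each gene in each sample from its mean over the young samples, in log2(CPM + 1), for the 8 genes, their ligands and pericentral neighbours; red is above and blue below the young mean. The 136-week column is blue for Kit (-2.13), Wnt2 (-1.62) and Rspo3 (-1.40) and red for Apln (2.31), Aplnr (1.90) and Gja1 (1.27), while Wnt9b, Rspo3 and Lhx6 are red at 127 weeks.

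The wider venous programme, 12 genes tested, had 9 higher and 3 lower and a median of 0.28. Vcam1, Zfpm2 and Foxc2 separated the ages on CPM, all with the aged samples higher, beside 11.8% of all genes tested. Foxc2 did not separate them on TMM-scaled CPM. Vcam1, an adhesion molecule gene, was at 817, 916 and 877 CPM in the young and 1813, 1872 and 2585 CPM in the aged samples (log2 fold change 1.21, SE 0.22, edgeR adjusted p = 0.193). Zfpm2 (FOG2), a cofactor of GATA factors, was at 16.3, 18.1 and 15.5 CPM in the young and 31.2, 22.9 and 36.1 CPM in the aged samples, and Foxc2, a transcription factor gene of veins and lymphatic valves, at 9.98, 13.2 and 2.62 CPM in the young and 13.7, 13.7 and 44.1 CPM in the aged samples, where the 136-week sample was far above the others. Tek, which encodes the angiopoietin receptor Tie2, was at 1491, 1466 and 1556 CPM in the young and 1574, 1284 and 787 CPM in the aged samples, with the 131- and 136-week values below every young one. Emcn (endomucin), found on veins and capillaries, was at 254, 238 and 308 CPM in the young and 463, 296 and 282 CPM in the aged samples with overlapping groups.

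On the arterial and portal side, 20 genes were tested, 12 of them higher and 8 lower, and the median log2 fold change was 0.087. Here 8 genes separated the ages, beside 17.3% of all genes tested (11.8% with the aged samples higher and 5.51% lower). Hey1, a Notch target, was at 10.3, 13.5 and 14.9 CPM in the young and 39.9, 31.1 and 86.4 CPM in the aged samples (log2 fold change 1.98, SE 0.41, edgeR adjusted p = 0.203). Jag1, a Notch ligand gene, was at 116, 94.9 and 88.8 CPM in the young and 235, 163 and 243 CPM in the aged samples, and Bmx, a kinase gene of arterial ECs, at 47.2, 39.5 and 29.4 CPM in the young and 77.1, 68.2 and 89.2 CPM in the aged samples. Sox17 (log2 fold change 0.46) and Cxcr4 (1.95, at 0.379 to 3.43 CPM) were also higher in every aged sample. Msr1, a scavenger receptor gene, at 535, 503 and 428 CPM in the young and 251, 247 and 189 CPM in the aged samples, and Notch4, at 135, 133 and 198 CPM in the young and 88.9, 110.5 and 122 CPM in the aged samples, were lower in every aged sample, as was Nrp1, a VEGF and semaphorin co-receptor gene, at 2277, 2008 and 1982 CPM in the young and 1715, 1864 and 795 CPM in the aged samples. Ltbp4, a matrix gene, was at 2732, 2264 and 1979 CPM in the young and 1889, 2393 and 2432 CPM in the aged samples and overlapped between ages. No arterial gene was called by edgeR.

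Genes that act beside the 8 proteins were counted in the same way. All 5 ligand genes tested (Efnb2, Efnb1, Efnb3, Kitl and Apln) were higher, with a median of 0.35. Kitl alone separated the ages, on CPM but not on TMM-scaled CPM. Efnb1, a further ligand gene of EphB receptors, was at 206, 145 and 106 CPM in the young and 176, 173 and 155 CPM in the aged samples. Of 15 signal transducer and partner genes of the 8 proteins, 8 were higher and 7 lower, and the median was 0.025. Only Sos1, a Ras activator gene, and Gnai3, an inhibitory G protein gene, separated the ages on CPM, both with the aged samples higher. Sos1 was at 18.7, 19.0 and 19.7 CPM in the young and 22.6, 24.1 and 26.2 CPM in the aged samples. Gnai3 was at 157, 177 and 167 CPM in the young and 191, 177 and 241 CPM in the aged samples. It separated by less than 1 CPM, and not on TMM-scaled CPM. Gnai2 was at 1099.8, 1023 and 794 CPM in the young and 797, 1016 and 1093 CPM in the aged samples. Cav1 (caveolin 1), a membrane scaffold gene, was at 368, 422 and 185 CPM in the young and 457, 305 and 1022 CPM in the aged samples, with the 136-week sample the highest, as for Gja1 and Aplnr. The 8 other Eph receptor genes tested reached at most 23.5 FPKM (Epha2), where Ephb4 had 171 FPKM or more, and summed to 58.0 to 61.3 CPM in young and 93.1 to 134 CPM in aged samples. Epha2, Epha4 and Epha7 were higher in every aged sample on CPM, beside 11.8% of all genes tested, and the median was 0.64. On TMM-scaled CPM Epha7 overlapped between ages. Epha2 was at 31.6, 36.3 and 36.4 CPM in the young and 54.3, 67.0 and 89.4 CPM in the aged samples and Epha4 at 14.2, 10.3 and 10.8 CPM in the young and 18.6, 17.7 and 20.7 CPM in the aged samples. Of 5 other cadherin genes none separated the ages (median 0.72, or 0.090 without the 136-week sample). Cdh5 (VE-cadherin), the junction cadherin of all ECs, was at 446, 452 and 352 CPM in the young and 268, 394 and 453 CPM in the aged samples, and Cdh1 (E-cadherin), the epithelial one, at 11.5, 6.56 and 6.86 CPM in the young and 8.45, 17.5 and 16.03 CPM in the aged samples.

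Genes of other EC types and other cells were measured beside these results. Large-vessel EC markers (8 tested) had a median log2 fold change of 0.60 and 5 genes with every aged value above every young one (Cd200, Fbln2, Cd34, Sox17 and Bst1), beside 11.8% of all genes tested, and summed to 4137 to 6216 CPM in young and 6637 to 8517 CPM in aged samples. Lymphatic EC markers (5 tested, median 1.23, or 0.70 without the 136-week sample) all overlapped between ages and summed to 2114 to 3183 CPM in young and 2100.0 to 5951 CPM in aged samples, with the 136-week sample the highest. Ccl21a, also on this list, had no count in any sample, which at this depth allows up to 0.0948 to 0.130 CPM. It had 0.0111 FPKM in the 131-week sample. Stellate and mural cell markers (11 tested, median 0.23, or -0.078 without the 136-week sample) summed to 159 to 413 CPM in young and 260.3 to 719 CPM in aged samples, and only Lrat separated the ages, lower in the aged. Reln counts in both this list and the lymphatic one. Other genes also count in more than 1 list. Sox17 is arterial and large-vessel, Vwf pericentral and large-vessel, and Flt4 venous and lymphatic. Gja4 and Gja5 are in the arterial and connexin lists, Efnb2 in the arterial and ligand lists, and Cdh5 in the cadherin and pan-endothelial lists. In the 127-week sample the mural sum was 522 CPM. There the list's median deviation from the young mean was -0.51 in log2(CPM + 1), while that of Reln was 1.66. In the 136-week sample Gja1, Aplnr and Tgm2 were highest. The large-vessel, lymphatic and venous programme sums were also the highest of the 6 there. So were the mural, cholangiocyte, pan-leukocyte, Kupffer, mast cell and T, NK and B cell sums. The sinusoidal, pan-endothelial, pericentral, arterial and hepatocyte sums were the lowest of the 6 in that sample. Pan-leukocyte markers (7 tested, all higher, median 2.27, only Coro1a separating the ages) summed to 26.8 to 36.2 CPM in young and 29.3 to 206 CPM in aged samples, and without the 136-week sample their median was 0.59. Kupffer cell and macrophage markers (9 tested, median 0.78, none separating) summed to 39.5 to 67.5 CPM in young and 13.6 to 167 CPM in aged samples, with a median of 0.20 without the 136-week sample. T, NK and B cell markers (7 tested, median 2.51, only Cd3e separating) summed to 0.885 to 1.70 CPM in young and 0.949 to 22.3 CPM in aged samples, with a median of 1.85 without the 136-week sample. Cd3e had 2, 1 and 0 counts in the young and 13, 3 and 74 counts in the aged samples, so its separation rests on few reads. Cholangiocyte markers (5 tested, median 0.79, of which Spp1 separated the ages) summed to 82.6 to 102 CPM in young and 177 to 225 CPM in aged samples. Hepatocyte markers (8 tested, all lower, median -0.94) summed to 119 to 172 CPM in young and 73.8 to 105 CPM in aged samples. Apoa2, Ttr, Serpina1a, Cyp2e1, Fabp1 and Fgb separated the ages on CPM, beside 5.51% of all genes tested that were lower in every aged sample. The part of these cells in the values of the 8 genes was not tested.

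For 7 of the 8 genes the 3 genes with the most similar pattern over the 6 samples are given, found among 8909 genes with a mean of at least 10 CPM, by the root mean square difference of centred log2(CPM + 1). The closest matches of Nr2f2 were Cdc42ep5, G3bp2 and Srp9, and those of Nr2f1 were Rnf216, Synrg and Tmem164. Cdh13 had the single closest match of these in Slc24a5 (difference 0.034, against a spread of 0.49 for Cdh13 itself), at 40.3, 42.3 and 44.3 CPM in young and 47.9, 55.2 and 19.2 CPM in aged samples, followed by Amigo2 and Camk1. Kit was matched less closely, by Pnp2 (0.17, against a spread of 0.78 for Kit), Rnase10 and Rerg. Pnp2 was at 23.0, 23.1 and 29.7 CPM in young and 14.4, 16.4 and 3.99 CPM in aged samples. Gja1 was matched by Snai1 (0.17), a transcription factor gene of mesenchymal change, by Ppp1r18 and by Mylk, the myosin light chain kinase gene. The genes nearest to Aplnr were C4b (0.35), Cxcl12 and Emid1, and C4b, a complement gene, stood at 43.3 CPM in the 136-week sample and at 6.13 to 14.7 CPM in the others. Idi1, Nipsnap1 and Dtd1 were nearest to Tgm2. With 6 samples, many genes share a pattern, and the lists describe likeness in these samples only.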

How the data were processed

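Liver ECs (CD31+CD45-) in 3 young and 3 aged samples were sequenced by the authors in 75-base single-end mode. The submitters' processing notes name CASAVA 1.8.2, TopHat2 2.1.0 and Cuffnorm 2.2.1 and the build mm9. The authors deposited unnormalized read counts (whole numbers) of 24421 gene symbols and FPKM values from Cuffnorm for 24346, scaled between samples. The counting program, annotation and use of strand are not given in the sources used here, so reads of overlapping genes on opposite strands cannot be told apart.

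Genes with at least 0.5 CPM in at least 1 sample (14612) were TMM-normalized and compared between ages by edgeR's quasi-likelihood test (edgeR 4.0.16, R 4.3.3), and p-values were adjusted after Benjamini and Hochberg. A gene was called at an adjusted p below 0.05 with a log2 fold change beyond 1. CPM are counts scaled by the total count of the sample. Ages were counted as separate on CPM without the TMM factors. With these factors Kit and Tgm2 still separated the ages. Narrow separations of other genes, such as Kitl, Foxc2, Gnai3, Epha7, Tgm4 and Apoa2, did not hold with them. The SE was taken from the log2 fold change and the F statistic (ratio of the former to the root of the latter), and intervals are 95%. Ratios were compared by two-sided exact permutation tests. Samples were separate by label and shared no numbers between ages, so nothing was paired; their p-values measure the spread between these samples, and floors cover counting error only. No replicate pair was a duplicate (smallest chi-square per degree of freedom 19.9), and 0 columns were left unmapped.

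All lists, the 8 genes included, were chosen with earlier results of these data known. Named from each list were up to 6 genes whose aged values lay all above or all below the young ones, the 2 of highest mean CPM and the ligands; others were picked after their values were seen. Alternatives were DESeq2 1.42.0 and its size factors, limma 3.58.1 (voom with quality weights, or log2 FPKM with 0.1 or 1 added) and other filters. Also run were a term for the kind of library (Lars2 and Rn45s share below 3% or not) and a term for the pan-leukocyte mean. Further alternatives were removal of Lars2 and Rn45s, and each sample left out. The genes most like Ephb4 in pattern are not reported here. The fits were tested on simulated data. Gene positions are from GENCODE vM1 (mm9), and promoters from RefSeq (GRCm38.p6), where Cdh13, Aplnr and Tgm2 had no entry.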

Additional observations from a re-analysis of the deposited data

How the results depend on the processing

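The number of genes called at all depended on the test. The main edgeR fit called 0 higher and 0 lower, DESeq2 395 and 79, and limma-voom with quality weights 13 and 2. Without the filter edgeR called 3 and 1. With a term for the kind of library by Lars2 and Rn45s it called 1 and 1, and with a term for the pan-leukocyte mean 5 and 10. Leaving out each sample gave 0 to 1 higher and 0 lower. Of the 8 genes Kit alone changed its side of the threshold, under DESeq2 (log2 fold change -1.18, adjusted p = 0.0262). It was lower in aged ECs under every alternative run (-1.39 to -0.58, adjusted p 0.0262 to 1), and from -1.39 to -0.85 as each sample was left out. Tgm2 and Gja1 kept their direction under every alternative run. Genes near 0 changed sign. Nr2f2 was 0.011 with CPM of at least 1 in 3 samples, 0.022 and 0.021 on log2 FPKM with 0.1 and 1 added, 0.032 with the Lars2 and Rn45s term, 0.077 with the pan-leukocyte term and -0.21 to 0.13 as each sample was left out. Nr2f1 was 0.027 with limma-voom, 0.079 with the pan-leukocyte term and -0.22 to 0.040 as samples were left out. With the pan-leukocyte term Ephb4 was 0.086 and Cdh13 0.51, and Cdh13 ranged from -0.48 to 0.23 as samples were left out. Aplnr was -0.58 with limma-voom, -0.039 on log2 FPKM with 0.1 added, -1.95 with the pan-leukocyte term and -1.14 to 1.07 as samples were left out. The log2 ratio of Ephb4 to Efnb2 ran from -0.50 to 0.094 as samples were left out and was 0.41 within samples with few Lars2 and Rn45s counts. That of Nr2f2 to Nr2f1 ran from -0.25 to 0.41 and was -0.038 within samples with many. The cause of these changes was not tested. List medians kept their sign under both scaling alternatives (DESeq2 size factors, Lars2 and Rn45s removed), and that of the venous programme, the arterial list, the receptor ligands, the Eph receptors and the sinusoidal markers under every alternative run. The pericentral median was -0.18 with limma-voom, -0.14 on log2 FPKM, -0.051 with the Lars2 and Rn45s term and as low as -0.26 with a sample left out (127 weeks). The transglutaminase and factor XIII median was -0.37 without the 136-week sample and -0.34 without the filter, and the connexin median -0.040 with limma-voom. The cadherin median was 0.13 with limma-voom and 0.015 on log2 FPKM with 1 added. Other medians that turned included the mural (-0.11 with limma-voom, -0.078 without the 136-week sample), mast cell (-0.35 without the 136-week sample) and signal transducer ones (-0.13 with the pan-leukocyte term, -0.017 and -0.011 on log2 FPKM, -0.00587 without the 136-week sample), and, with the pan-leukocyte term, the Kupffer (-1.15), mast cell (-1.92), T, NK and B cell (-0.045), mural (-0.089), transglutaminase and factor XIII (-0.24) and Nr2 (0.077) ones. No paired analysis was possible because the ages share no replicate numbers. The mast cell list and the T, NK and B cell list had no gene left with CPM of at least 1 in 3 samples. With 3 samples an age, an exact test cannot go below p = 0.1. Of the 8 intervals only that of Nr2f2 lies within a 1.5-fold difference either way.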
